A study of Mus musculus with 31 samples.

Results

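Of 31 single cells from mouse lung, 14 were monocyte-like cells. Transcripts of the monocyte antigen gene Ly6c2 were read in 10 of these and not in the other 4. The 14 were chosen by 3 measured values: FPKM (fragments scaled to transcript length and library size) of the lysozyme gene Lyz2 of 1000 or more, FPKM of the complement gene C1qb under 1, and a split at 1 FPKM of Ly6c2. These 3 genes are not part of the findings, and neither is Ly6c1, a neighbour of which 21.5% of the 50-base stretches also occur in Ly6c2. The cells came from 10-week-old adult B6 mice of genotype Csf1r-GFP, in which a green fluorescent protein reports Csf1r, a growth factor receptor gene of monocytes and macrophages. Right lung lobes were taken 7 days after a sham operation that opened the chest, and every cell shares genotype, age and operation. The sort label names CD45+, CSF1R-GFP+ and F4/80+, and Ly6G without a sign, so the reporter and the sort limit which monocytes could be caught. All 31 cells form 1 group and no animal is named. Each side of the split therefore counts as 1 sample, no test was made, and every mean ± SD below is over cells and describes these cells alone.

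Blood monocytes of the mouse are divided by the surface protein Ly6C. Ly6C-high, or classical, monocytes leave the bone marrow by way of the chemokine receptor CCR2, enter inflamed tissue and can take up a macrophage or antigen-presenting state there. Ly6C-low, or nonclassical, monocytes patrol vessel walls, depend on the nuclear receptor NR4A1 and carry much of the fractalkine receptor CX3CR1. Cells that leave the classical state in tissue also lose Ly6C, so the absence of Ly6c2 alone does not name a cell type.

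The selected cells lay far from the thresholds. Lyz2 in the 14 cells ran from 4075 FPKM in D4 upward, and the next cell below the threshold, D10, had 553 FPKM. C1qb was at most 0.63 FPKM in the 14, against 3729 FPKM or more in the 6 Lyz2-high cells that were left out for C1qb. Ly6c2 was 48.6 to 7311 FPKM (median 1946) in the 10 positive cells, lowest in A6, and 0 in all 4 negative cells, which the labels call C11, D4, D6 and F10. The plot of Lyz2 against Ly6c2 shows both borders.

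**Figure D1:**
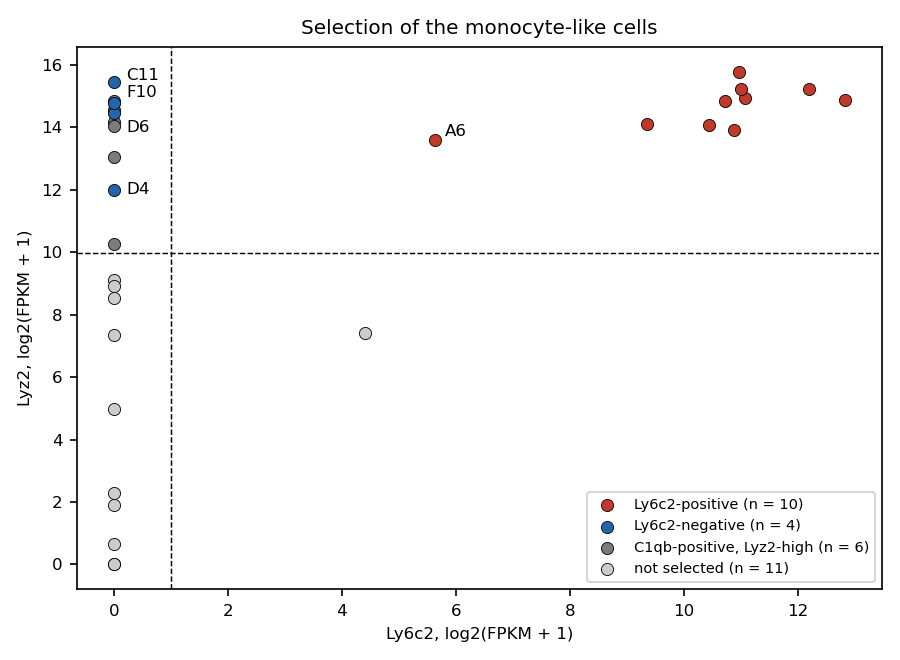
Lyz2 against Ly6c2 in each of the 31 cells, both as log2(FPKM + 1), with dashed lines at the 2 thresholds and 1 point per cell. The 10 Ly6c2-positive cells lie from 48.6 FPKM upward, the 4 Ly6c2-negative cells lie at 0, and A6 is the positive cell nearest to the border.

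Depth and library quality overlapped between the sides. Total expected counts, the read estimates per gene, were 521492 to 3526674 per cell (median 1233765) in positive and 908472 to 1959746 (median 1770476) in negative cells. Genes at 1 FPKM or more numbered 1856 to 2771 and 2169 to 2780, the share of counts on nuclear protein-coding genes was 87.4 to 95.6% and 91.6 to 92.3%, and the mitochondrial share was 1.09 to 4.08% and 1.02 to 2.38%. No molecule identifiers were used, so these depths count amplified copies. A gene is called present at 1 FPKM or more, and a gene present in 0 of 10 or 0 of 4 cells may still be in up to 30.8% or 60.2% of such cells by counting error alone (exact Clopper-Pearson 95% limit). A value of 0, also of Ly6c2, means that the gene was not read in that library, and its transcripts may have been missed. Even the ribosomal protein genes Rps18 and Rpl8 were at 0 in D4 and in A12. Words such as none, absent and lacked refer to the values alone.

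By genes outside the rule, the positive cells, C11 and F10 carried most classical monocyte genes, while D6 and D4 held fewer. Of 22 classical monocyte genes, 15 to 21 (median 19) were present per positive cell, against 19 in C11, 20 in F10, 11 in D6 and 6 in D4, and 4 to 8 in the 6 C1qb-positive cells. D4 instead held 15 of 22 nonclassical monocyte genes, where the positive cells held 3 to 11 and C11, D6 and F10 held 9, 5 and 5. Of 16 interstitial macrophage genes the positive cells held 0 to 4 and the negative cells 1 to 5, the most in D6. The C1qb-positive cells held 6 to 13. C1qa, Pf4, Lyve1, Cbr2, Cd163, Mertk, Gas6 and Tmem119 were at 0 in all 14. C1qa went with C1qb, at 1946 to 7564 FPKM in the 6 C1qb-positive cells. Its 0 in the 14 therefore follows from the C1qb rule and adds nothing to a likeness with monocytes. Pf4 was read in all of those cells but C7, so its 0 in the 14 largely follows from the same rule. Lyve1 and Cd163 were at 0 in the C1qb-positive cells too, and Cbr2, Mertk, Gas6 and Tmem119 were at 0 in most of them. The zeros of these genes therefore do little to separate the 14 from that set.

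Other lineages left few traces. All 11 T and NK cell genes and all 8 platelet and erythroid genes were at 0 in the 14 cells. The summed level of the 8 B cell genes was 0 in all positive cells and 0 to 508 FPKM in the negative ones, where D6 had 508 FPKM of Ighm, the gene of the IgM constant region, and Cd79a, Cd79b, Ighd, Pax5 and Ebf1 were at 0. The 10 genes of epithelium, endothelium and fibroblasts summed to at most 0.47 FPKM in positive cells and to at most 120.2 FPKM in negative ones, with Epcam, Sftpc, Scgb1a1, Cdh5, Kdr, Col1a2 and Pdgfra at 0 and Pecam1 at 120.2 FPKM in D4. Of 14 alveolar macrophage genes, 11, among them Siglecf, Marco and Pparg, were at 0 in all 14 cells.

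The marker genes that accompany Ly6c2 did not all follow it. Ccr2 (ENSMUSG00000049103; chromosome 9, 124101950 to 124113557, GRCm38), the receptor for the chemokine CCL2, was present in 9 of 10 positive cells (90%, exact Clopper-Pearson 95% interval 55.5 to 99.7%) at 0 to 1197 FPKM (median 219.6). In the negative cells it read 187 FPKM in C11, 0 in D4, 695 in D6 and 224 in F10. Thus 3 of the 4 Ly6c2-negative cells carried Ccr2 inside the range of the positive cells, and G8 among the positive cells had none. The difference of mean log2(FPKM + 1), positive minus negative, was 0.74, far under the SDs over cells (6.94 ± 3.29 against 6.20 ± 4.22), and without D4 it turned to -1.33.

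Nr4a1 (ENSMUSG00000023034; chromosome 15, 101254269 to 101274795), which encodes the nuclear receptor that nonclassical monocytes need and is also an immediate early gene, was present in 6 of 10 positive cells (60%, 26.2 to 87.8%) at 0 to 578 FPKM (median 124). It was present in 4 of 4 negative cells (100%, 39.8 to 100%), at 173 FPKM in C11, 275 in D4, 781 in D6 and 189 in F10. A10, A12, C8 and E12 had none, and A6 and B9, at 166 and 82.6 FPKM, lay below the lowest negative cell. B7, E7, G8 and H4 lay inside the range of the negative cells. The difference was -3.34 (4.85 ± 4.25 against 8.18 ± 1.0). Cx3cr1 (ENSMUSG00000052336; chromosome 9, 119901616 to 120069879) was nearly absent from the positive cells, present in 1 of 10 (10%, 0.253 to 44.5%) at 4.54 FPKM in B9. Among the negative cells it was high in C11 alone, at 160.2 FPKM, with 1.97 in D4 and 0 in D6 and F10. In the C1qb-positive cells it was present in 6 of 6 at 18.8 to 695 FPKM (median 114).

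Across the transcriptome the sides differed gene by gene more than as wholes. Compared were 4300 genes at 1 FPKM or more in at least 3 of the 14 cells, and a difference of 2 on the log2(FPKM + 1) scale, 4-fold on that scale, was used to count them. Of these, 507 (11.8%) were higher by 2 or more in the positive cells and 594 (13.8%) were lower, and the median difference of all 4300 was -0.03. The cell type and pathway lists described next hold 326 compared genes, of which 121 were past 2. When 1 of the 14 cells was left out, 66 of these came under 2 for at least 1 cell, and 5 of the 66 took the other sign (Cd14, Klf2, Tlr7, Ifitm3 and Rpl6). Cells of 1 side resembled each other about as much as they resembled the other side. Pearson's r of log2(FPKM + 1) over the 4300 genes was 0.306 to 0.426 (median 0.373) over the 45 pairs of positive cells, 0.292 to 0.393 (0.330) over the 6 pairs of negative cells and 0.259 to 0.403 (0.360) over the 40 pairs between them, with cells shared among pairs. The median r with the positive cells was 0.373 for C11 and for F10, 0.356 for D6 and 0.294 for D4, while the positive cells had 0.328 to 0.398 among themselves. D4 was the least like the others.

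Without overlap between the sides, 1 gene (0.0233%) was higher and 5 (0.116%) were lower in the positive cells. The higher one was Akap13, a kinase anchor gene, at 0.69 to 87.9 FPKM (median 30.1) in positive cells and 0.18 FPKM in C11, 0 in D4, 0 in D6 and 0 in F10, a narrow gap at its lower end. The lower ones began with Sgk1, a kinase gene induced by serum and glucocorticoids, at 0 to 369 FPKM (median 0) in positive cells, where 6 of 10 had none, and 1419.5 FPKM in C11, 769 in D4, 755 in D6 and 465 in F10. Calm2, a calmodulin gene, was at 0 to 408 FPKM (median 63.1) and 584 FPKM in C11, 1204 in D4, 646 in D6 and 512 in F10. Kpnb1, which encodes the nuclear import receptor importin beta, was at 0 in all 10 positive cells. It read 36.4 FPKM in C11, 87.7 in D4, 44.0 in D6 and 27.2 in F10. Il2rg, the common gamma chain of several interleukin receptors, was also at 0 in all 10. It read 93.3 FPKM in C11, 840.2 in D4, 0.34 in D6 and 276 in F10. The gap to D6 is narrow and lies under 1 FPKM, and 27.5% of the 50-base stretches of Il2rg occur in other genes. The fifth, 1810026B05Rik, is not protein-coding, shares 29.4% of its 50-base stretches with Chd2 and was at 0 to 17.5 FPKM (median 0) against 556 FPKM in C11, 1408 in D4, 802 in D6 and 471 in F10. These counts rested on single cells. They were 9 higher and 14 lower without C11, 4 and 21 without D6, 2 and 15 without D4, 2 and 19 without F10, 2 and 10 without H4 and 3 and 8 without B9 or C8. Without A6, B7 or G8 2 genes were higher, and with the other cells left out in turn the counts stayed at 1 and 5.

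Among genes present in at least 75% of the positive cells, the 12 protein-coding genes with the largest differences were Gm49342, Apoc2, Akr1a1, Mgst1, Rack1, Gch1, Minos1, Anxa2, Sap18, Fn1, Vim and Gnb2. Several act in metabolism and redox balance. Apoc2, an activator of lipoprotein lipase, was present in 8 of 10 positive cells at 0 to 3257 FPKM (median 475) and was listed at 0 in all 4 negative cells, but 78.3% of its 50-base stretches also occur in Gm44805. Gch1, the rate-limiting enzyme of tetrahydrobiopterin synthesis, was present in 8 of 10 at 0 to 572 FPKM (median 254) and at 0 in the negative cells. Akr1a1, an aldehyde reductase gene, was present in all positive cells at 6.96 to 1971 FPKM (median 779) and, among negative cells, in D6 alone at 183 FPKM. Mgst1, a microsomal glutathione transferase gene, was at 0 to 3185 FPKM (median 591) and read 7.55 FPKM in C11, 0 in D4, 0 in D6 and 75.5 in F10. Minos1, a gene of the complex that shapes mitochondrial cristae, was at 0 to 2529.7 FPKM (median 1047), with F10 at 749 FPKM and the other negative cells at 0.

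Others of the 12 encode matrix, cytoskeletal and signalling proteins. Vim, the intermediate filament gene, was at 819 to 3835 FPKM (median 1872) in the positive cells and at 2935 FPKM in C11, 0.74 in D4, 15 in D6 and 213 in F10. Anxa2, a calcium-dependent membrane-binding protein gene, was at 498 to 1368 FPKM (median 923) and 2244 FPKM in C11, 0 in D4, 0 in D6 and 178 in F10. C11 thus exceeded every positive cell in Anxa2, and the gap to the other negative cells set the mean difference of 5.22 (9.87 ± 0.41 against 4.65 ± 5.58). Rack1, a scaffold on the ribosome, was at 448 to 3292 FPKM (median 1981) and at 0 FPKM in C11, 0 in D4, 840.0 in D6 and 1019.6 in F10, and Gnb2, a G protein beta subunit gene, at 179 to 1956 FPKM (median 531) and 0 FPKM in C11, 0 in D4, 439 in D6 and 304 in F10. Without D4 the difference of Vim was 3.11 in place of 4.85. Gm49342 was at 0 to 1522 FPKM (median 611) and at 0 in all negative cells, and it shares 95.4% of its 50-base stretches with the nucleoside phosphorylase gene Pnp, so its reads cannot be told apart from those of Pnp.

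In the opposite direction the 12 leading genes were Sgk1, Snu13, Svbp, Zc3h7a, Irf1, Tsg101, Tuba1b, Il2rg, Atp5d, Snx5, Sirpb1a and Slc25a11. Irf1, a transcription factor of the interferon response, was present in 1 of 10 positive cells, at 6.09 FPKM in B9, and read 328 FPKM in C11, 845 in D4, 569 in D6 and 0 in F10 in the negative cells. Tsg101, a sorting factor of the endosome, was at 0 to 32.0 FPKM (median 0) and 133 FPKM in C11, 652 in D4, 348 in D6 and 9.90 in F10. Snx5, which returns cargo from the endosome, was at 0 in all positive cells but A12 and C8 (8.44 and 658 FPKM) and read 81.6 FPKM in C11, 57.7 in D4, 247 in D6 and 573 in F10. Both endosomal genes were therefore present in all 4 negative cells and in few positive ones. Snu13, a splicing and ribosomal RNA processing factor gene, was present in 2 of 10 positive cells (highest 444 FPKM) and read 193 FPKM in C11, 919.7 in D4, 246 in D6 and 805 in F10. Atp5d, a subunit of the mitochondrial ATP synthase, was present in 3 of 10 and read 366 FPKM in C11, 767 in D4, 314 in D6 and 405 in F10. Svbp and Sirpb1a were listed at 0 in all 10 positive cells and were present in 3 of 4 negative cells each. Of these 12, Tuba1b shares 75.1% of its 50-base stretches with other genes, chiefly Tuba1c, Sirpb1a 40.4% and Il2rg 27.5%, so their values are uncertain. The heat map of these genes shows that each block has exceptions on both sides.

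**Figure D2:**
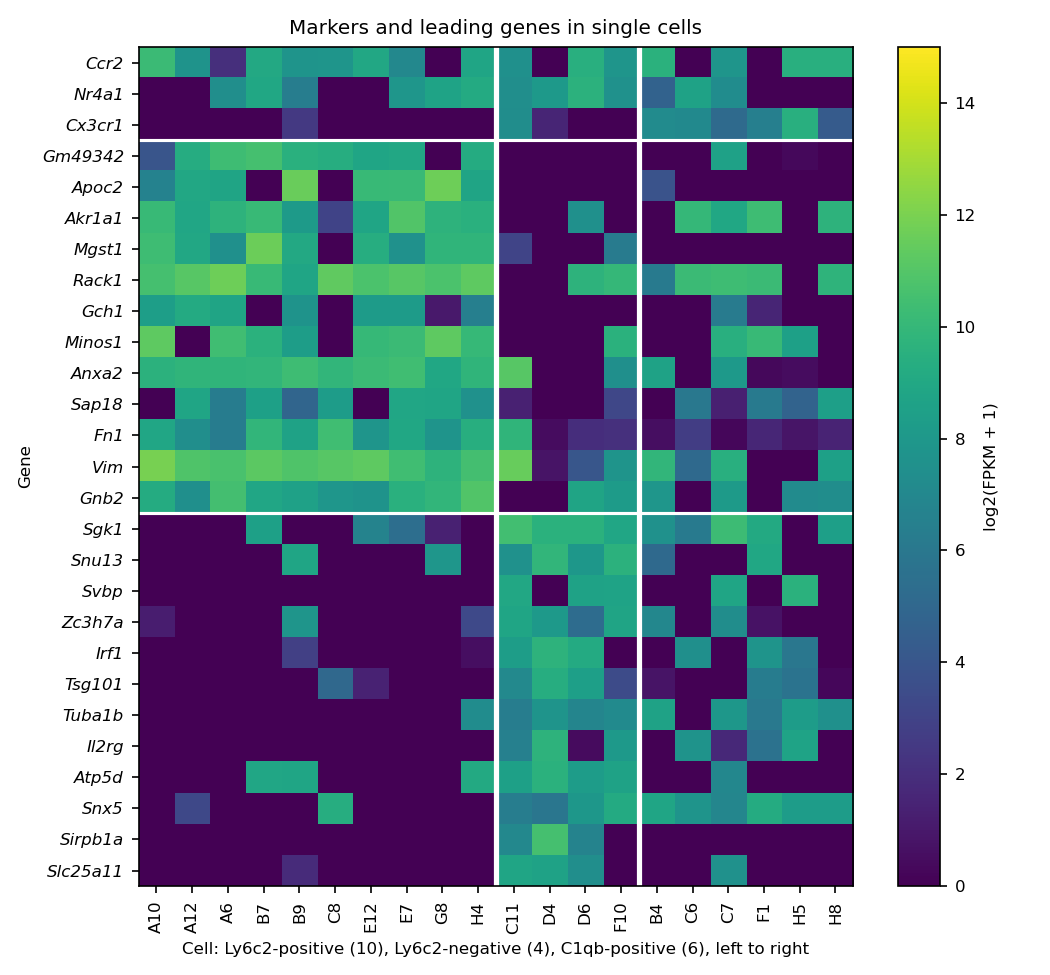
Levels as log2(FPKM + 1), by colour, of the 3 marker genes (top), the 12 leading higher genes (middle) and the 12 leading lower genes (bottom), with 1 column per cell. C11 shares Anxa2, Fn1 and Vim with the positive cells, and the lower genes are at 0 in most positive cells while the C1qb-positive cells carry several of them.

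Genes of the classical monocyte programme were higher in the positive cells as a group, with 2 negative cells that carried much of it. Of the 22 list genes, all were compared, 11 (50%) were higher by 2 or more and 0 lower, against 11.8% and 13.8% of all genes, and the median difference was 2.09 against -0.03 for all genes. These were Mgst1, Fn1, Hp, Ifitm6, S100a6, Chil3, Vcan, Ifi27l2a, Plac8, Cd14 and Gm9733. Without D4 the count was 6 higher and 1 lower with a median of 0.93, without D6 it was 8 and 0 with 1.46, and without A6 and D4 together it was 5 and 1 with 1.09.

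Fn1 (ENSMUSG00000026193; chromosome 1, 71585520 to 71653200), which encodes fibronectin, was present in all 10 positive cells at 78.0 to 1349.9 FPKM (median 434). It read 911 FPKM in C11, 0.40 in D4, 2.95 in D6 and 3.31 in F10 in the negative cells, so that C11 lay inside the positive range and the other 3 far below its lower end. The means were 8.54 ± 1.23 against 3.60 ± 4.22. Hp (ENSMUSG00000031722; chromosome 8, 109575128 to 109579172), the gene of the haemoglobin-binding protein haptoglobin, was present in all 10 positive cells at 48.2 to 1608 FPKM (median 780.5) and read 573 FPKM in C11, 0 in D4, 0 in D6 and 409.9 in F10. C11 and F10 lay among the positive cells, D4 and D6 had none, and the means were 9.17 ± 1.39 against 4.46 ± 5.16. Vcan, the matrix proteoglycan versican, was at 0 to 1036 FPKM (median 59.5) in the positive cells and was found in F10 alone of the negative cells (122 FPKM), without which its difference was 4.88 in place of 3.14.

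For abundant members of the group the difference came from 1 negative cell. S100a6, a calcium-binding protein gene, was at 2013 to 16396 FPKM (median 6737) in the positive cells and 2988 FPKM in C11, 0 in D4, 913 in D6 and 6868 in F10, and without D4 its difference was 0.97 in place of 3.82. Ifi27l2a, an interferon-induced gene, was at 741 to 19952 FPKM (median 4183) and 3869 FPKM in C11, 0 in D4, 2060.1 in D6 and 5764 in F10, and without D4 its difference was 0.05. Cd14, the co-receptor for lipopolysaccharide, was at 0 to 4470.3 FPKM (median 3286) and 2106 FPKM in C11, 0 in D4, 769 in D6 and 4354 in F10, and without D4 it turned to -0.50. Plac8, a marker of classical monocytes, was at 372 to 10009.7 FPKM (median 4345) and 4113 FPKM in C11, 614 in D4, 0 in D6 and 7428 in F10, and without D6 its difference was 0.08. The zero in D4, or in D6 for Plac8, set these 4 differences, and the remaining negative cells lay mostly inside or near the positive range. Chil3, a chitinase-like protein gene, was highest of all in C11 (12025 FPKM) against 0 to 4017 FPKM (median 933) in the positive cells and 608 FPKM in F10. Its difference was 3.38, 6.0 without C11 and 1.48 without D4.

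Fn1, Hp, Mgst1, Ifitm6 and Vcan each kept a difference past 2 with any 1 of the 14 cells left out. Gm9733 was near the threshold, with 2.22 and 1.33 without C11, D4 or D6. Ifitm6, a membrane protein gene of the interferon-induced family, was present in 6 of 10 positive cells at up to 3881 FPKM in A10 and in C11 alone of the negative ones (33.5 FPKM). The remaining 11 genes of the list were within 2 in either direction. S100a4, Lgals3, Clec4e and Cebpb were present in all 10 positive and all 4 negative cells, with differences of 1.72, 0.22, 0.64 and 0.18. Ms4a4c had the lowest difference of the list, -1.88, at 412 FPKM in C11, 0 in D4, 643 in D6 and 166 in F10, against 0 to 1102 FPKM (median 23.4). In the C1qb-positive cells Hp, Vcan, Mgst1, Plac8 and Ifitm6 were present in 0 of 6.

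**Figure D3:**
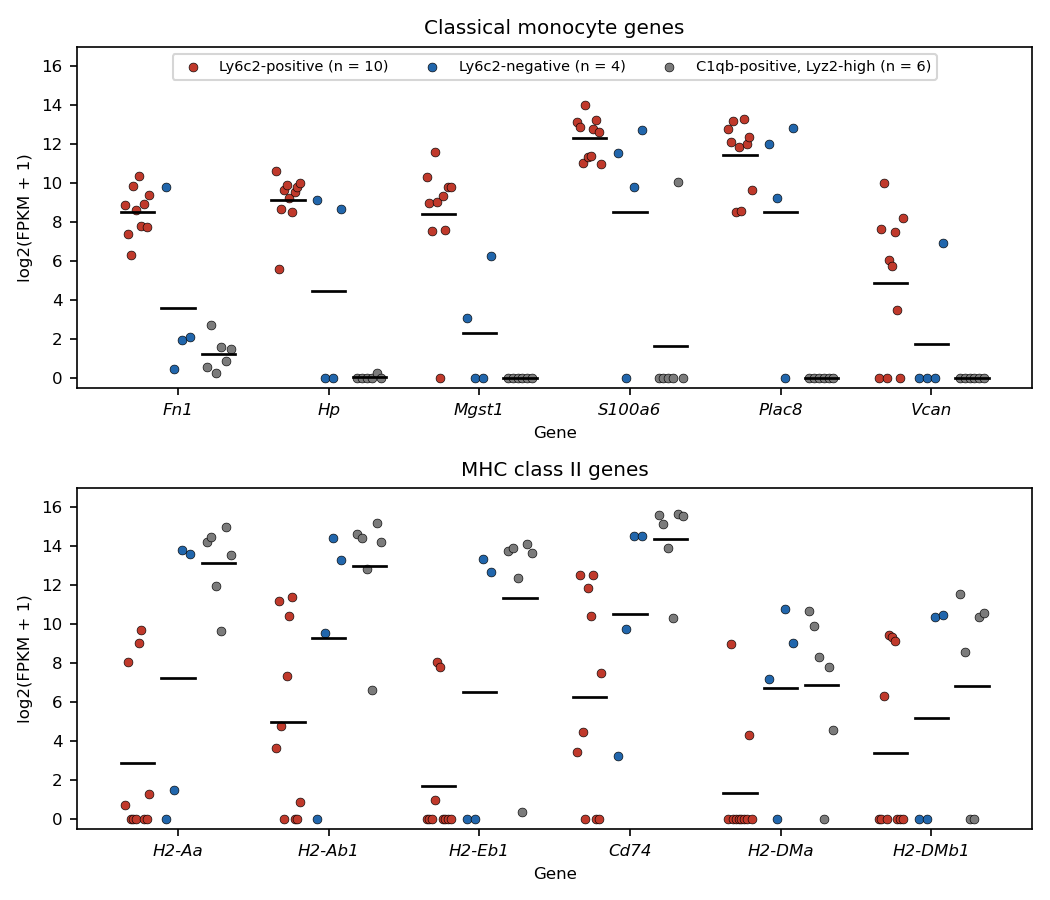
Levels as log2(FPKM + 1) of 6 classical monocyte genes (top) and 6 MHC class II genes (bottom), with 1 point per cell and a bar at the mean of each set. The negative cells split within both panels: C11 carries Fn1 at 911 FPKM and D6 and F10 carry H2-Eb1 at 10612 and 6553 FPKM, where the positive cells reach 266 FPKM.

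Genes for antigen presentation by MHC class II were lower in the Ly6c2-positive cells, and the high values lay in 2 of the 4 negative cells. MHC class II molecules present peptides from the endosome to CD4 T cells. Their alpha and beta chains are encoded by H2-A and H2-E genes, Cd74 encodes the invariant chain that guards the groove, H2-DM genes encode the peptide editor, and Ciita encodes the transactivator that drives the set. Their promoters share a conserved module that ends in a Y box, an inverted CCAAT motif. The 150 bases before the RefSeq start (GRCm38.p6) are shown for 4 of these genes, chosen because they hold letters of this motif and were found in these cells. H2-DMa, also highest in D6 and F10, is not shown, and its 2 windows hold neither CTGATTGG nor ATTGG. Capitals mark CTGATTGG in H2-Aa and H2-Eb1, the shorter ATTGG in H2-DMb1 and H2-DMb2, and a CCAAT in H2-Eb1.

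H2-Aa: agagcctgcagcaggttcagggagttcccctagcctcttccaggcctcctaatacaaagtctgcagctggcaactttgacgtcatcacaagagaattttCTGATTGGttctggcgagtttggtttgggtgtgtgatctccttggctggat
H2-Eb1: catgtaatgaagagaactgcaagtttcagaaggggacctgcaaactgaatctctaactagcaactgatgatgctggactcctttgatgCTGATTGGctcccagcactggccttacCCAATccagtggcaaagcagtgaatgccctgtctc
H2-DMb1: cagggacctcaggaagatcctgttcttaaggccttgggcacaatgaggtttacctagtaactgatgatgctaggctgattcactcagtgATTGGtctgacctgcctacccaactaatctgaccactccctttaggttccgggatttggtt
H2-DMb2: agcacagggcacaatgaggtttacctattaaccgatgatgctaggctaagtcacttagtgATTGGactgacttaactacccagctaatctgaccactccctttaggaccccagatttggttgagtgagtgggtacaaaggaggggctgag

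H2-Aa lies on the minus strand at chr17:34287824-34287973 with the first capital letter at -51 from the start. The others lie on the plus strand, H2-Eb1 at chr17:34305717-34305866 (-62), H2-DMb1 at chr17:34153041-34153190 (-61) and H2-DMb2 at chr17:34145099-34145248 (-90). CTGATTGG, searched on both strands, occurs in 4 of the 10 class II list genes with a window (H2-Aa, H2-Eb1, H2-Eb2 and H2-Oa) and in 1039 of 32851 windows of this length (3.16%). ATTGG, which the longer motif contains, occurs in 7 of the 10 and in 8047 windows (24.5%). A match describes letters only and shows neither a bound site nor a cause.

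Of 15 class II genes 11 were compared, 0 were higher and 7 (63.6%, against 13.8% of all genes) were lower by 2 or more (H2-DMa, H2-Eb1, H2-Ab1, H2-Aa, Cd74, Cd86 and H2-DMb2), and the median difference was -2.44. Without D6 the count was 5 and the median -0.99, and without A6 and D4 they were 8 and -3.85. H2-Eb2, H2-Oa, H2-Ob and the costimulator gene Cd80 were at 0 in all 14 cells.

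H2-Eb1, the beta chain of H2-E, read 0 FPKM in C11, 0 in D4, 10612 in D6 and 6553 in F10 in the negative cells. Among positive cells it was present in B9 (266 FPKM) and C8 (227 FPKM). Neither C11 nor D4 had it, and without D6 or F10 its difference of -4.83 was -2.54 or -2.77. H2-Aa, the alpha chain of H2-A, read 0 FPKM in C11, 1.82 in D4, 14316 in D6 and 12594 in F10, against 0 to 850.5 FPKM (median 0.33) in the positive cells. H2-Ab1, its partner, read 0 FPKM in C11, 749 in D4, 22113 in D6 and 10265 in F10, against 0 to 2731 FPKM (median 19.2). Both followed H2-Eb1 in being high in D6 and F10 and low or absent in C11, without which their differences of -4.34 and -4.35 were -6.75 and -7.46. Without D6 they were -2.15 and -2.65.

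Cd74 read 8.48 FPKM in C11, 863 in D4, 23857 in D6 and 23525 in F10 in the negative cells and 0 to 6036 FPKM (median 101) in the positive ones. The positive cells were divided themselves. A12, B9, C8 and E12 had 5958, 3682, 1361 and 6036 FPKM, H4 had 181 FPKM, and A6, A10, B7, E7 and G8 had at most 21.3 FPKM. H2-Ab1 followed the same cells, at 2320.5, 164, 1359 and 2731 FPKM in A12, B9, C8 and E12 and at most 26.8 FPKM in the other 6. H2-DMa, a chain of the peptide editor, read 145 FPKM in C11, 0 in D4, 1786 in D6 and 524 in F10 and was present in 2 of 10 positive cells, with a difference of -5.43. H2-DMb1, which encodes the other chain, read 0 FPKM in C11, 0 in D4, 1330.5 in D6 and 1433 in F10 and was at 0 to 695 FPKM (median 0) in the positive cells, with 695 FPKM in B9, 645 in C8 and 569.6 in E12 and a difference of -1.79. H2-DMb2 was high in D6 alone (475 FPKM), without which its difference was -0.36, and Cd86, a costimulator gene, was highest in D6 (677 FPKM) and had -0.99 without it.

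Not every gene of the pathway followed. Ctss, the protease that trims the invariant chain, was present in all 14 cells at 377 to 4398 FPKM (median 2422) and 2252 FPKM in C11, 2008 in D4, 3819 in D6 and 1476 in F10, with a difference of -0.21. Ciita was low wherever it was found, at 14.6 FPKM in D6, 0.32 in F10 and at most 17 FPKM in the positive cells. In the C1qb-positive cells H2-Eb1 was present in 5 of 6 at 0.32 to 17638 FPKM (median 13404) and Cd74 in 6 of 6 at 1279.7 to 51594 FPKM (median 42499), and D6 and F10 lay within these ranges. Of 12 MHC class I and peptide loading genes 8 were compared, 0 were higher and 2 were lower, with a median of -1.45. The 25% lower stands against 13.8% of all genes, of which 11.8% were higher. H2-K1, a classical class I heavy chain gene, was present in all 14 cells at 7.38 to 1031 FPKM (median 97.9) and 623 FPKM in C11, 2569 in D4, 986 in D6 and 1114 in F10, and its difference was -3.34. H2-Q4, another class I gene, which shares 36.4% of its 50-base stretches with other genes, was present in 1 of 10 positive cells and read 64.4 FPKM in C11, 179.5 in D4, 0.34 in D6 and 103 in F10. Without D4, D6 or E12 the count of lower class I genes was 4.

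Some markers of other antigen-presenting cells were present beside these values. The interstitial macrophage genes summed to 0.94 to 4357 FPKM in positive and 2576 to 5420 FPKM in negative cells, most of it Apoe and Selenop. Of the dendritic cell genes Clec9a, Itgae, Cadm1 and Tlr3 of type 1 and Cd209a, Mgl2, Zbtb46, Irf4 and Ccr7 of type 2 were at 0 in all 14 cells, and the 9 and 11 genes of these lists summed to at most 772 and 1608 FPKM in negative cells and 1739.9 and 719.6 FPKM in positive cells. Batf3, a transcription factor gene of type 1, was at 465 FPKM in F10, 1 of the 2 cells high in class II, and at 0 in the other 13. Ifi205 of the type 1 list was highest in E12 (1739.9 FPKM), and Il1r2 of the type 2 list in C11 (1464 FPKM). Sirpa, which type 2 dendritic cells and monocytes share, was in all positive cells at 5.56 to 291 FPKM (median 60.9) and read 0 FPKM in C11, 0 in D4, 76.2 in D6 and 9.30 in F10. Naaa, an acid amidase gene of the type 1 list, was present in 2 of 10 positive cells and read 329 FPKM in C11, 0 in D4, 45.7 in D6 and 307 in F10. The part of other cell types in the class II values was not tested.

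The 4 negative cells were not of 1 kind. C11 carried 19 classical genes, Cx3cr1, no H2-Aa, H2-Ab1 or H2-Eb1 and 19 of 26 receptor genes, more than any of the other 13 cells. F10 carried 20 classical genes together with class II genes. D6 carried class II genes and Ccr2 at 695 FPKM but lacked Hp, Plac8 and Chil3, and it had 174 FPKM of the mannose receptor gene Mrc1, which was at 0 in the other 13 cells.

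D4 stood apart by its nonclassical genes. It had 4258 FPKM of the ribonuclease gene Ear2, 1025 of the integrin gene Itgax, 1171 of the peptidoglycan recognition gene Pglyrp1, 379 of the receptor gene Cd300e, 377 of Spn, which encodes CD43, 1334 of the fatty acid carrier gene Fabp4 and 118 of Ace. It also had 2787 FPKM of the transcription factor gene Klf2 and 402 of Pou2f2, and no Ccr2, Cd14, Hp, Vcan or S100a6. Its Cx3cr1 was 1.97 FPKM, and Treml4, a marker of Ly6C-low monocytes, was at 0 in it and was found in G8 alone (983 FPKM). Itgax and Cd300e were at 0 in the other 13 cells, and Eno3 and Cd36 were at 0 in all 14. Others of these genes were also read in positive cells. Ace was at 109 FPKM in G8 and 85.2 in E12, Fabp4 at 992 in E12 and Pglyrp1 at 579 in A12. Spn reached 46.1 FPKM in B7, and Pou2f2 124 in A12. Klf2 was read in A10, B7, B9, E7 and H4, at up to 322 FPKM in E7, and at 416 FPKM in the negative cell C11. D4 also had the lowest Lyz2 of the 14, while its coding share was 91.6%.

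As a group the 22 nonclassical genes were therefore mixed. Of 14 compared, 5 were lower in the positive cells (Ear2, Cd300ld, Nr4a1, Itgal and Klf2) and 1, Apoc2, was higher, with a median of -1.30. Lower genes were 35.7% and higher genes 7.14% of the 14, against 13.8% and 11.8% of all genes. Without C11 the lower count was 3, and without D4 the median was -0.53. Itgal, the alpha chain of the integrin LFA-1, was present in 8 of 10 positive cells at 0 to 408 FPKM (median 51.8) and read 396 FPKM in C11, 699 in D4, 175 in D6 and 62.2 in F10. Ear2, of which 41.5% of 50-base stretches occur in other genes, read 0 FPKM in C11, 4258 in D4, 581 in D6 and 0 in F10, and without D4 its difference was -2.53 in place of -4.78. Cd300ld, a gene of the CD300 receptor family, was in C11 (559 FPKM) and D4 (129 FPKM) and had -1.78 without C11 in place of -3.48. Klf2 turned from -2.02 to 0.12 without D4. Gngt2 did not divide the sides, present in 10 of 10 and 4 of 4 cells.

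**Figure D4:**
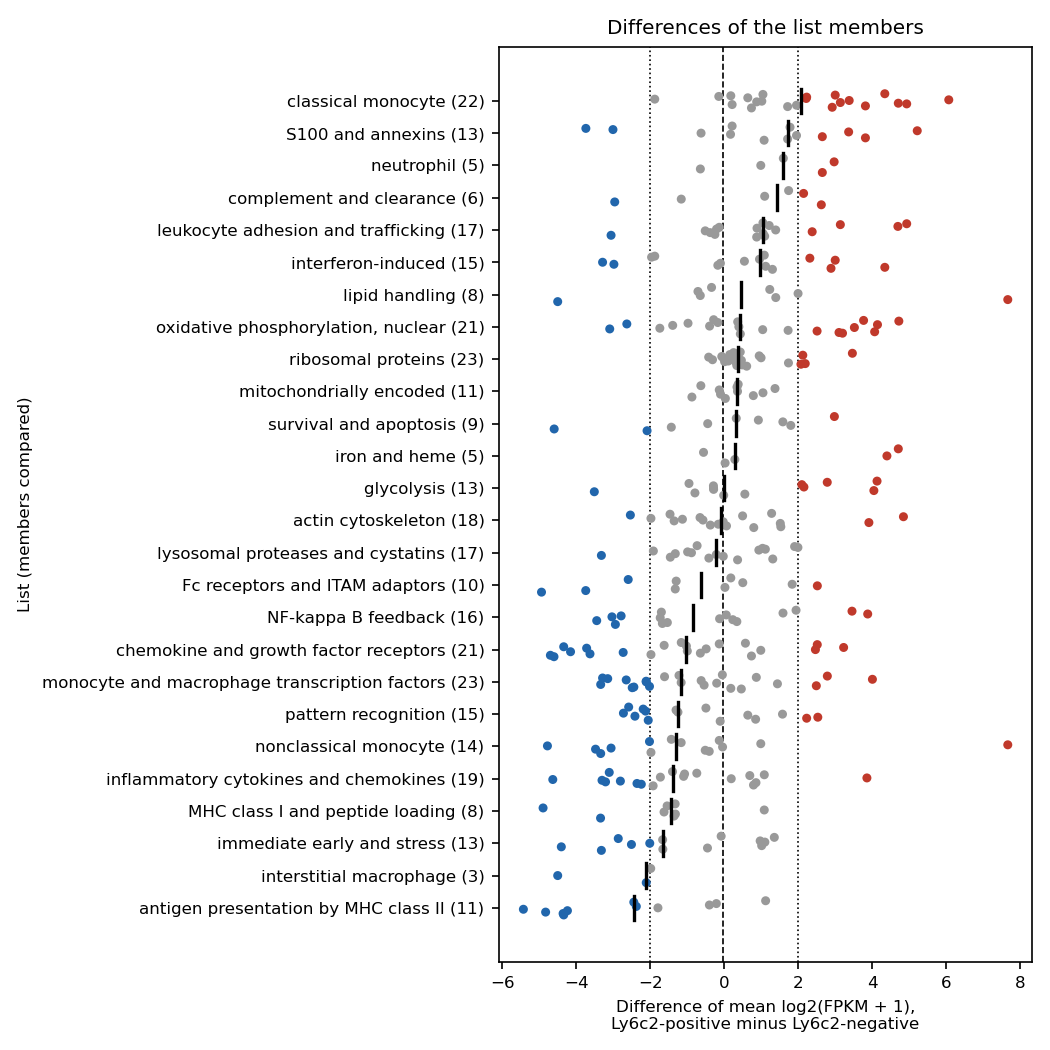
Difference of mean log2(FPKM + 1), positive minus negative, of every compared list member (points, red at 2 or more, blue at -2 or less), for lists with at least 3 compared members, with a bar at each list's median and a dashed line at the median of all 4300 genes. Classical monocyte genes have the highest median, 2.09, and MHC class II genes the lowest, -2.44.

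Receptors for chemokines and growth factors were more often lower than higher in the positive cells, while their share of higher genes was near that of all genes. Of 26 genes 21 were compared, 3 were higher (Ifnar2, Tnfrsf1a and Ifngr1) and 7 were lower (among them Ccr1, Il10ra, Csf2ra, Ifnar1, Cxcr4 and Csf1r), with a median of -1.02. These are 14.3% and 33.3% of the 21, against 11.8% and 13.8% of all genes. Without D4 the lower count was 11 with a median of -2.20, and without C11 it was 8 with -0.66.

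The chemokine receptor CCR1 binds CCL3 and related ligands. Ccr1 was present in 3 of 10 positive cells at no more than 14.4 FPKM and read 294 FPKM in C11, 0 in D4, 89.8 in D6 and 109 in F10, with means of 0.77 ± 1.34 against 5.37 ± 3.66. Cxcr4, the receptor that holds cells in the marrow, read 50.1 FPKM in C11, 0.36 in D4, 512 in D6 and 439 in F10 against 0 to 147 FPKM (median 0), and without D4 its difference of -3.63 was -5.47. Both were absent or nearly absent in D4.

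Cytokine receptors divided likewise. Il10ra, which transmits the signal of interleukin 10, was present in all 4 negative cells (344 FPKM in C11, 54.6 in D4, 2.77 in D6 and 27.6 in F10) and in 2 of 10 positive cells, of which A6 had 251 FPKM. Csf2ra, a chain of the GM-CSF receptor, was present in all 4 (22.4 FPKM in C11, 326 in D4, 234 in D6 and 15.7 in F10) and in 4 of 10 positive cells. Csf1r, the reporter's own gene, was present in all 14 cells, at 1.71 to 386 FPKM (median 42.8) in the positive and 150.1 FPKM in C11, 367 in D4, 103 in D6 and 287 in F10 in the negative ones, with means of 4.93 ± 2.57 against 7.66 ± 0.84. The interferon receptor chains went opposite ways. Ifnar1 was present in 1 of 10 positive cells and read 370.3 FPKM in C11, 0 in D4, 4.24 in D6 and 79.9 in F10, and without C11 its difference of -3.72 was -2.31. Ifnar2 was present in 7 of 10 positive cells at 0 to 977 FPKM (median 74.3) and in F10 alone of the negative ones (62.4 FPKM). Ifngr1 was present in all positive cells at 9.79 to 1277 FPKM (median 277) and read 181 FPKM in C11, 729.9 in D4, 0 in D6 and 25.1 in F10, and its difference of 2.47 was 0.66 without D6. Tnfrsf1a had 1.95 without B9 in place of 2.52. Adgre1, which encodes the sorted antigen F4/80, was present in 6 of 10 positive and 3 of 4 negative cells.

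Fc receptor genes were lower in the positive cells for 2 of the antibody receptors. Fcgr2b, the inhibitory receptor for IgG, was at 0 to 41.8 FPKM (median 4.35) and read 1185 FPKM in C11, 0 in D4, 1001 in D6 and 2563 in F10, so that D4 alone lacked it, and without D4 its difference of -4.94 was -7.56. Fcgr3, an activating receptor, was at 0 to 732 FPKM (median 231) and 454 FPKM in C11, 651 in D4, 1259 in D6 and 1009 in F10, with means of 5.87 ± 4.14 against 9.61 ± 0.66. Of the 13 genes of this list 10 were compared, with 3 lower, 1 higher (the activating receptor gene Trem1) and a median of -0.64. The 10% higher is near the 11.8% of all genes, and the 30% lower stands against 13.8%. Trem1 had 1.96 without E7 in place of 2.52. The adaptor gene Tyrobp was in all 14 cells with a difference of 0.02.

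Inflammatory cytokine genes were found on both sides and tended to lower values in the positive cells. Of 26 genes 19 were compared, 7 were lower (Ccl4, Ccl3, Osm, Casp1, Ccl2, Tnf and Il1rn) and 1, Ccl6, was higher, which are 36.8% and 5.26% of the 19 against 13.8% and 11.8% of all genes, with a median of -1.40. Without D4 the lower count was 11, without D6 it was 4, and without C11 5 were lower and 5 higher. Ccl4, a chemokine that attracts T cells and monocytes, was at 0 to 30264 FPKM (median 3729) in the positive cells, with A10, A12 and C8 at 0, and at 24438 FPKM in C11, 19009 in D4, 937 in D6 and 6146 in F10. Ccl3, its close relative, was at 0 in the same 3 cells and otherwise reached 5102 FPKM in A6, against 1049.7 FPKM in C11, 5574 in D4, 1484 in D6 and 1011 in F10. The 7 other positive cells had 359.6 FPKM of Ccl3 or more. The differences were -4.63 and -3.30. A10, A12 and C8 also lacked Tnf and Nr4a1.

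Ccl6 went the other way, present in all positive cells at 217 to 11112 FPKM (median 2574) and at 296 FPKM in C11, 0.99 in D4, 474 in D6 and 1130.2 in F10 in the negative ones, and without D4 its difference of 3.86 was 1.84. Ccl12, a ligand of CCR2, was not compared under the filter and was at 0 in all positive cells, with 502 FPKM in C11 and 1641 in D6. Those 2 cells also held Ccl2 (302 and 2023 FPKM), which was in A6 and A10 of the positive cells, and its difference of -2.81 was -0.75 without D6. Il1b, the interleukin 1 beta gene, was abundant on both sides, at 0 to 12795 FPKM (median 4529) and 10064 FPKM in C11, 544 in D4, 13228 in D6 and 8286 in F10. Osm had -1.57 without D6 in place of -3.21, Il1rn -0.32 without F10 in place of -2.24, and Tnf -1.63 without C11 in place of -2.36.

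Receptors that sense microbes and the feedback genes of NF-kappa B had medians below 0 that moved with single cells. Of 20 pattern recognition genes 15 were compared, 2 were higher (Ly96 and Cd14) and 6 lower (Clec4n, Ticam2, Myd88, Clec4a3, Clec4a1 and Tlr7), with a median of -1.25. These are 13.3% and 40% of the 15, against 11.8% and 13.8% of all genes. The median was -0.04 without D6 and -0.03 without F10, and without C8, E7 or D4 3 were lower. Ticam2, an adaptor gene of Toll-like receptors, had -0.82 without D6 in place of -2.58, and Myd88, another adaptor gene, -0.88 without F10 in place of -2.41. Clec4n, a C-type lectin receptor gene, read 0 FPKM in C11, 0 in D4, 3238 in D6 and 1518 in F10 and was present in 3 of 10 positive cells, and its difference of -2.72 was -0.69 without D6. Tlr7, a sensor of RNA, was highest in D4 (3383 FPKM), and without D4 its difference of -2.05 was 0.34. Ly96, the partner of the lipopolysaccharide receptor, had 1.77 without A12 in place of 2.53. All 16 NF-kappa B genes were compared, with 2 higher (Tnfaip2 and Ier3), 4 lower (Relb, Nfkbie, Nfkb1 and Nfkbiz) and a median of -0.83. The 12.5% higher is near the 11.8% of all genes, and the 25% lower stands against 13.8%. Without D4 7 were lower, and the median was -0.21 without C8 and -0.29 without C11. Relb, a subunit of NF-kappa B, was present in 4 of 10 positive cells and read 208 FPKM in C11, 21.5 in D4, 136 in D6 and 0 in F10. Tnfaip2, a gene induced by TNF, was at 13.8 to 5176 FPKM (median 729) and 1325 FPKM in C11, 0 in D4, 1203 in D6 and 0 in F10, and its difference of 3.88 was 2.16 without D4.

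Transcription factor genes of the lineage were lower in more cases than higher. Of 32 genes 23 were compared, 3 were higher (Zeb2, Hif1a and Klf4) and 9 lower (among them Nr4a1, Nfil3, Bhlhe40, Irf8, Irf5, Runx1 and Klf2), with a median of -1.16. These are 13% and 39.1% of the 23, against 11.8% and 13.8% of all genes. Without D4 the lower count was 5 and the median -0.35, and without G8 the count was also 5. Zeb2, a repressor needed for monocyte and macrophage identity, was at 0.23 to 758 FPKM (median 194) in the positive cells and 0 FPKM in C11, 118 in D4, 1.83 in D6 and 18.1 in F10, with means of 7.17 ± 2.66 against 3.16 ± 3.05. Hif1a, the oxygen-sensing factor gene, was present in all positive cells at 15.3 to 985 FPKM (median 335) and read 87.1 FPKM in C11, 0 in D4, 157 in D6 and 62.2 in F10, and without D4 its difference of 2.79 was 1.14. Klf4, a factor of monocyte differentiation, was present in 8 of 10 positive cells and in D4 alone of the negative cells, at 625 FPKM, above every positive cell.

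Of the lower ones, Irf8 and Bhlhe40, which encode factors of myeloid cells, were highest in D4 (263 and 1011 FPKM), and without it their differences of -2.49 and -2.65 were -0.90 and -0.76. Nfil3, a bZIP factor gene, was in C11, D6 and F10 (188, 403 and 939.5 FPKM) and in 4 of 10 positive cells. Runx1 and Irf5 were near the threshold of 2, at -2.11 and -2.44, and came under it without F10 and D4, at -0.81 and -1.97. Spi1, which encodes the lineage factor PU.1, and Cebpb did not divide the sides, with differences of 0.46 and 0.18.

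Immediate early genes, which respond within minutes to stimulation, were 0 higher and 5 lower of 13 compared. The lower ones were Junb, Fos, Btg2, Atf3 and Ier2, 38.5% of the 13 against 13.8% of all genes. The median was -1.66, and 11.8% of all genes were higher. Leaving out D6 gave 2 higher and 2 lower, leaving out D4 or E12 gave 0 and 3, and leaving out C11 gave 0 and 7. Junb was present in 7 of 10 positive cells at 0 to 735 FPKM (median 92.6) and read 393 FPKM in C11, 556 in D4, 993 in D6 and 620.0 in F10. Fos was at 0 to 2353 FPKM (median 249) and 1169 FPKM in C11, 715 in D4, 302 in D6 and 557 in F10. Both were in all 4 negative cells and absent from 3 positive ones, and in the C1qb-positive cells both were in 6 of 6. Of the other 3, Btg2 had -1.64, Atf3 -1.92 and Ier2 -1.41 without D6, against -2.86, -2.51 and -2.01.

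**Figure D5:**
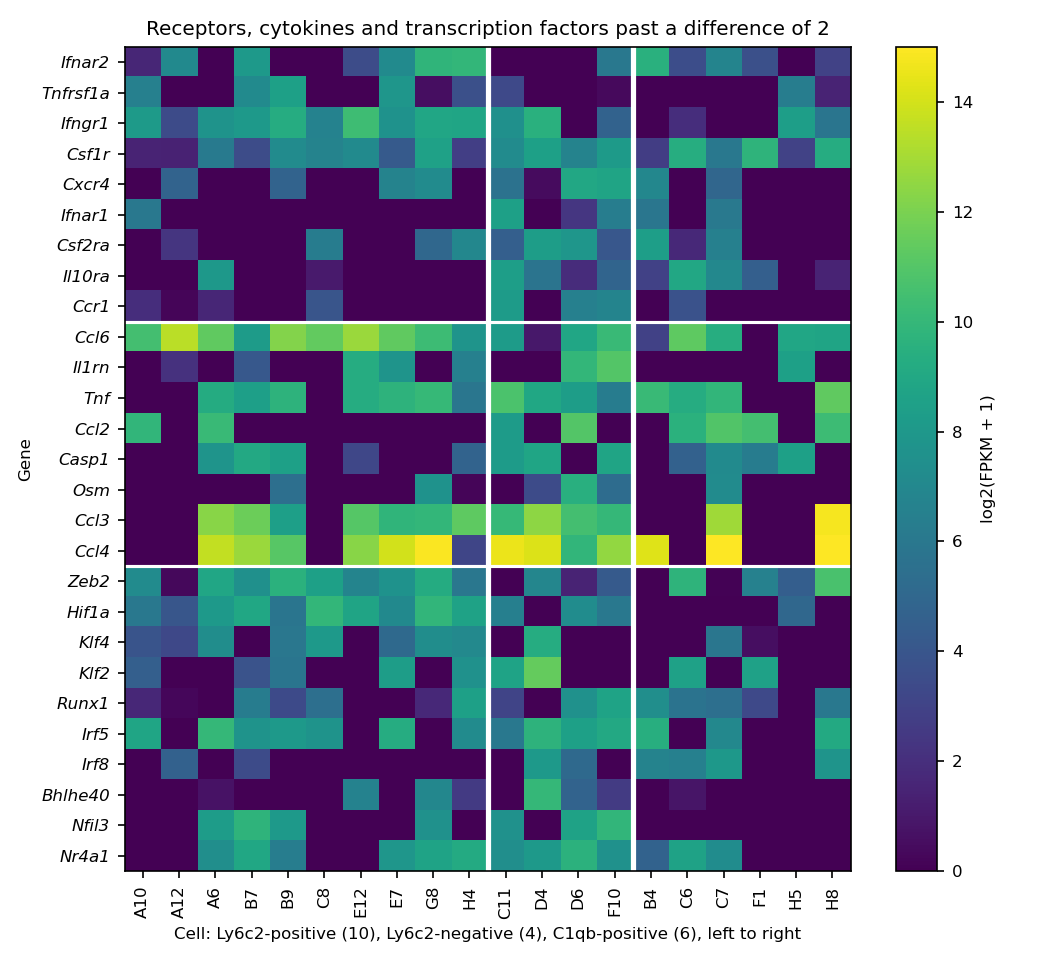
Levels as log2(FPKM + 1), by colour, of receptor genes (top), cytokine and inflammasome genes (middle) and transcription factor genes (bottom) that are reported here and past a difference of 2 in either direction, with 1 column per cell. A10, A12 and C8 lack Ccl3, Ccl4 and Tnf, and the chemokine receptor genes Ccr1 and Cxcr4 are dark in most positive cells.

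Calcium-binding and adhesion genes had medians above 0 that came close to 0 without 1 negative cell. Of 16 S100 and annexin list genes 13 were compared, 4 were higher (Anxa2, S100a6, Anxa1 and S100a8) and 2 lower (Anxa5 and Anxa4), with a median of 1.72, or 0.012 without D4. The 30.8% higher stands against 11.8% of all genes, and the 15.4% lower is near the 13.8% of all genes. Anxa5, a phosphatidylserine-binding protein gene, was present in 6 of 10 positive cells and read 807 FPKM in C11, 405 in D4, 1544 in D6 and 393 in F10, opposite to Anxa2. Anxa1, an inhibitor of inflammation, was at 0 to 1379 FPKM (median 513) and 0 FPKM in C11, 697 in D4, 0 in D6 and 235 in F10, and its difference of 3.36 was 1.92 without C11. Of 19 adhesion genes 17 were compared, 4 were higher (Fn1, Cd177, Vcan and Itgb7) and 1, Itgal, lower, which are 23.5% and 5.88% of the 17 against 11.8% and 13.8% of all genes, with a median of 1.05, or 0.16 without F10 and 0.35 without D6. Cd177, a surface protein best known from neutrophils, was present in 6 of 10 positive cells at 0 to 553 FPKM (median 111) and listed at 0 in all 4 negative and all 6 C1qb-positive cells.

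Neutrophil genes were in part present. Of the 13 list genes 5 were compared, 2 were higher (Ly6g and S100a8) and 0 lower, with a median of 1.6. The 40% higher rests on only 5 genes, beside 11.8% of all genes higher and 13.8% lower. Ly6g and S100a8 were at 0 in all negative cells and passed the gene filter through the positive cells alone. Neither could have counted as lower, so this share gives no support for a difference of the list. Ly6g, named in the sort, was present in 7 of 10 positive cells at 0 to 115 FPKM (median 8.61) and at 0 in the negative cells, and S100a8 was present in 3 of 10 positive cells. Mmp8, a collagenase gene of neutrophil granules, had 398 FPKM in B7 and 349.9 in H4, and Csf3r, the G-CSF receptor gene, had 174 in A10, 122 in B9 and 102 in E7, against at most 30.4 FPKM in the negative cells. Ly6g is a gene of the Ly6 family, and 0.448% of its 50-base stretches occur in other genes. The defining genes S100a9, Retnlg, Ltf, Lcn2, Camp, Mmp9 and Stfa2l1 were at 0 in all 14 cells, and the 13 neutrophil genes summed to 3.37 to 1768 FPKM in positive and 1.69 to 30.4 FPKM in negative cells. S100a8 had 1.77 without A10 in place of 2.65.

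Interferon-induced genes were higher in part, with a share of lower genes near that of all genes. Of 27 genes 15 were compared, 4 were higher (Ifitm6, Ifi27l2a, Ifitm3 and Ifi207) and 2 lower (Oasl1 among them). The shares were 26.7% and 13.3%, against 11.8% and 13.8% of all genes. Ifitm6 and Ifi27l2a also belong to the classical monocyte list. The median was 0.96, 0.08 without D4 and -0.28 without D6. Ifitm3 was in all 10 positive cells at 1379.6 to 10547 FPKM (median 5745) and read 8070.5 FPKM in C11, 8276 in D4, 0 in D6 and 3567 in F10, and without D6 its difference of 2.89 was -0.26. Oasl1 had -1.91 without C11 in place of -2.98, and Ifi207 1.27 without D4 in place of 2.32. Ifit2, Ifit3, Ifi44 and Usp18 were at 0 in all 14 cells.

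Genes of energy metabolism were higher in part. Of 22 nuclear genes of oxidative phosphorylation 21 were compared, 8 were higher (Atp5h, Cox6c, Ndufb8, Atp5l, Uqcrq, Ndufa2, Ndufa4 and Ndufb9) and 2 lower (Uqcrb and Cox7c), yet the median was 0.44, since the other 11 lay within 2. Higher genes were 38.1% and lower genes 9.52% of the 21, against 11.8% and 13.8% of all genes. Without D4 the counts were 4 and 5, and without C11 they were 7 and 4. Cox6c, a subunit of cytochrome c oxidase, was in all positive cells at 621 to 5281 FPKM (median 2332) and read 489 FPKM in C11, 0 in D4, 1234 in D6 and 390.4 in F10, and without D4 its difference of 4.14 was 1.83. Atp5l, of the ATP synthase, was at 791 to 3324 FPKM (median 1836) and 173 FPKM in C11, 775 in D4, 2061 in D6 and 0 in F10 and had 1.43 without F10 in place of 3.77. All 11 mitochondrially encoded genes lay within 2 (median 0.35).

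Of 17 glycolysis genes 13 were compared, 5 were higher (Slc16a3, Aldoa, Ldha, Pgk1 and Eno1) and 1, Pfkp, lower, with a median of -0.01. The shares were 38.5% and 7.69%, against 11.8% and 13.8% of all genes. Slc16a3, a lactate exporter gene, was present in 7 of 10 positive cells at 0 to 207 FPKM (median 40.3) and at 0 in the negative and the C1qb-positive cells. Aldoa, an aldolase gene, was at 0 to 795 FPKM (median 340.4) and 0 FPKM in C11, 945 in D4, 7.99 in D6 and 0 in F10, and D4, above every positive cell, held the difference at 4.05 in place of 6.25. Ldha and Pgk1 were each in F10 alone of the negative cells, without which their differences of 2.79 and 2.16 were 5.23 and 4.41. Eno1 had 0.11 without F10 in place of 2.10. Without any 1 of A10, B9, H4, C11 and D4 the count of higher genes was 3. Hmox1, the haem-degrading enzyme gene, was present in 5 of 10 positive cells at up to 2362 FPKM in C8 and at 0 in the negative cells.

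Ribosomal, actin and lysosomal genes differed little. All 23 ribosomal protein genes were compared, and 4 were higher (among them Rps18, Rpl8 and Rpl6) and 0 lower. These are 17.4% and 0% of the 23, against 11.8% and 13.8% of all genes. The median was 0.38, and 2 were higher without D4 or A10. Between 22 and 23 were present in each positive cell and 21 to 23 in each negative cell. Rps18 had 0.62 and Rpl6 -0.33 without D4 in place of 3.47 and 2.08, and Rpl8 had 0.07 without F10 in place of 2.19. Of 18 actin cytoskeleton genes 2 were higher (Vim and Coro1a, 11.1%) and 1 was lower (Myo1f, 5.56%). The higher share is near the 11.8% of all genes, and the lower share stands against 13.8%. The median was -0.09, and without D4 3 were lower. Coro1a had 1.91 without F10 in place of 3.91, and Myo1f -1.93 without D6 in place of -2.54. Lysosomal protease and cystatin genes also did not divide the sides, with 0 higher and 1 lower (Ctsl) of 17 compared. These are 0% and 5.88%, against 11.8% and 13.8% of all genes. Their median was -0.21, though 3 were lower without B9, C8 or D4. Of 15 cell cycle genes 10, among them Top2a and Cdk1, were at 0 in all 14 cells, and 0 to 3 were present in any of them.

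Apoe, the apolipoprotein gene of tissue macrophages, stood between the sets. It was present in 8 of 10 positive cells at 0 to 3380.3 FPKM (median 750.4), read 1865 FPKM in C11, 5419 in D4, 2096 in D6 and 3718 in F10 in the negative cells and was in 6 of 6 C1qb-positive cells at 4306 to 29000.3 FPKM (median 13592). A6, A10, B7 and E7 had at most 22.4 FPKM, and the same 4 cells, with G8, had at most 21.3 FPKM of Cd74. The means were 7.04 ± 4.49 against 11.54 ± 0.72 on the log2(FPKM + 1) scale. The highest positive cell, B9, had 3380.3 FPKM.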

How the data were processed

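Single cells were captured on a Fluidigm C1 chip and amplified as polyA cDNA without molecular identifiers or strand marks, per the labels' protocols. The authors deposited 2 tables, RSEM expected counts (estimated reads per gene, not normalized) and FPKM (scaled to gene length and library), for 47069 Ensembl genes of GRCm38. CASAVA 1.8, Trimmomatic and RSEM are named per the submitters' processing notes. Sources used here do not give the aligner, annotation or settings. The count table has 75 columns, of which 44 match no sample and were not used.

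FPKM was taken as log2(FPKM + 1). For each of 4300 genes (with a symbol, at 1 FPKM or more in at least 3 of the 14 cells, without Ly6c1, Ly6c2, Lyz2 and C1qb) the mean over negative cells was taken from that over positive cells. Such a difference understates low genes, and where a side is listed at 0 it depends on the pseudocount of 1. The filter favours genes of the larger side: 549 of the 4300 were present in positive cells alone and 17 in negative cells alone. Expected counts gave depth and coding shares, and 0.274% of them fell on rows without a symbol. Intervals are exact Clopper-Pearson 95% and cover counting error only. The count model for counts was not used, since each side is 1 sample. The highest Pearson's r of log2 counts between any 2 of the 14 cells was 0.535, so no libraries were alike enough to be counted as 1.

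The members and the 35 gene lists (510 genes) were chosen with earlier results of these data known. Named by rule were the 3 markers, the 12 leading protein-coding genes in each direction, genes without overlap and 2 members per list and direction past 2. Other genes were named after their values were seen. Some genes that enter the counts are not reported here by name. Shared 50-base stretches were counted between GENCODE M21 transcripts, and upstream sequences came from RefSeq. Alternatives changed the gene filter, pseudocount, scaling, depth, unit, thresholds and summary and left out each cell. Of these, 29 were planned, and 3 (without A6 and D4, protein-coding genes only, and a filter of 50% of either side) were chosen after seeing the data. The scripts were tested on simulated data and used Python 3.11.15, numpy 2.4.6, pandas 2.3.3, scipy 1.17.1 and matplotlib 3.10.9.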

Additional observations from a re-analysis of the deposited data

How the results depend on the processing

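No paired analysis was possible because all 31 cells form 1 group and the labels give no numbers shared between sides. Of 91 named genes past 2, 81 kept their sign in all 32 alternatives, as did 9 of 26 list medians. Not every alternative could change a sign. A Ly6c2 threshold of 10 FPKM, a C1qb threshold of 10 FPKM and a coding share of 80% kept the same 14 cells. The gene filters left each difference as it was. A Lyz2 threshold of 5000 FPKM repeated the set without D4, and a Ly6c2 minimum of 50 FPKM that without A6. Most named genes were also picked for large differences in these same cells. Counts past 2 depended most on the pseudocount, at 890 higher and 932 lower with 0.1 and 144 higher and 203 lower with 10. A filter of 50% of the cells of either side gave 334 higher genes, with a median over all genes of -0.59. Higher genes were 46.0% of those past 2, against 31.8% with medians over cells, 37.5% with no filter and 32.4% with the 50% filter, and 55.1% with a Ly6c2 threshold of 100 FPKM. They were the majority without C11 (52.2%) and without D6 (50.8%) as well.

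Genes without overlap, 1 higher and 5 lower, became 2 higher with thinned counts, with library-scaled expected counts and with A6 left out by a Ly6c2 minimum of 50 FPKM. They became 2 lower with a Ly6c2 threshold of 100 FPKM, which moves A6 to the negative side. Leaving out 1 cell at a time gave 1 to 9 higher and 5 to 21 lower.

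A Lyz2 threshold of 100 FPKM adds D8, D10, E5 and G1 to the negative and G3 to the positive cells. It left 0 genes without overlap in either direction and turned the interstitial macrophage median to 0.67. Medians were then 3.76 for classical monocyte genes, 0.99 for transcription factors, 0.41 for MHC class I, 1.11 for pattern recognition, 2.11 for Fc receptors, 0.56 for NF-kappa B, 0.80 for immediate early genes and 2.52 for interferon-induced genes. They were 4.01 for S100 and annexins, 2.48 for lysosomal, 3.29 for oxidative phosphorylation, 3.29 for ribosomal, 2.77 for actin and 3.55 for iron genes. Reported single genes that turned were Apoe (0.63), H2-K1 (0.34), Fcgr3 (0.53), Anxa5 (0.44), Uqcrb (0.79), Cox7c (1.94) and Bcl2a1a (0.12). The added cells held few coding counts, 45.9% in D8, 43.2% in D10, 61.4% in E5, 44.9% in G1 and 32.7% in G3. The lowest share among the 14 cells was 87.4%, and the cause of these shifts was not tested.

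A Lyz2 threshold of 5000 FPKM drops D4 and gave 2 higher and 15 lower genes without overlap. Medians were then -0.35 for transcription factors, -2.20 for receptors and 0.012 for S100 and annexins, and Cd14 turned to -0.50. Without A6 and D4 the counts were 3 and 19, transcription factors -0.27, receptors -2.17 and Cd14 -0.58. With medians over cells the neutrophil list was at 0, MHC class II at -5.19 and Uqcrb at 0.035. Leaving out 1 cell moved the median from -1.38 to -0.35 for transcription factors, -2.20 to -0.66 for receptors, -1.65 to -0.027 for pattern recognition, -0.28 to 1.76 for interferon-induced genes and 0.012 to 2.0 for S100 and annexins, and Cd14 from -0.50 to 3.53. With 4 negative cells and no animal named, none of these values extends to other mice.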
